A study of Mus musculus with 12 samples.

Results

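The genes described here encode the Fc receptors of mouse myeloid cells and the neonatal Fc receptor, the proteins by which cells bind the constant part of IgG. They were chosen by symbol (Fcgr1, Fcgr2b, Fcgr3, Fcgr4, Fcer1g and Fcgrt) from a table of read counts for 12199 genes measured by bulk RNA-Seq in bone marrow (BM) of leukemia-prone and WT mice. All 6 symbols were in the table and all 6 were among the 12175 genes tested.

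The study compared 4 genotypes of C57BL/6 mice, given here as the labels spell them. WT mice carried no engineered allele. DF mice were Dnmt3aFlox/+ with MxCre and Flt3 ITD/+, TF mice were Tet2+/- with Flt3ITD/+, and TFD mice carried Tet2+/-, Flt3ITD/+ and Dnmt3aFlox/+ with MxCre, so every mutant group held the internal tandem duplication of Flt3 in 1 copy and no group held it alone. All animals, WT included, received poly(I:C), the RNA mimic that switches on MxCre, at 8-10 weeks of age, and the study's methods place the analysis 8-9 weeks later, so the interferon-inducing treatment was shared by every group. MxCre acts in blood cells and in other interferon-responsive cells, whereas the Tet2 allele was inherited and did not depend on Cre. The labels name the source as mononuclear cells of whole BM, globin RNA was removed before sequencing, and 11 libraries were analysed: 3 of WT, 3 of DF, 3 of TF and 2 of TFD. TFD replicate 3 was not analysed here, since the table of read counts held no column for it. Nothing in the labels says whether the libraries of a group came from separate mice, so the p-values measure the spread between these libraries.

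Receptors for the Fc part of IgG let phagocytes take up and respond to antibody-coated targets. The activating receptors of the mouse are FcγRI (Fcgr1, high affinity), FcγRIII (Fcgr3) and FcγRIV (Fcgr4), and each needs the Fc receptor γ chain (Fcer1g), whose ITAM recruits the kinase Syk. FcγRIIb (Fcgr2b) is the inhibitory receptor, with an ITIM that recruits the phosphatase SHIP, and it is the Fcγ receptor of B cells as well as a receptor of myeloid cells. FcRn (Fcgrt) works differently: it pairs with β2-microglobulin, binds IgG in acidic endosomes and returns it to the cell surface, which protects IgG from breakdown. In BM, monocytes, macrophages, neutrophils and natural killer (NK) cells carry different sets of these receptors.

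Libraries held 8274153 to 15900904 assigned reads, with TMM factors between 0.924 and 1.043. The targeted genes did not check the labels: gene counts do not separate the deleted exons or the duplication, and Tet2 (136-205 CPM in TF, 163-209 in TFD, 148-169 in WT) and Dnmt3a (38.0-46.4 CPM in DF, 54.4-58.6 in TFD, 30.9-57.8 in WT) were not called lower than in WT in the groups that carry 1 altered copy. For Tet2 the log2 fold changes were 0.20 in TF and 0.25 in TFD, and for Dnmt3a -0.15 in DF and 0.29 in TFD. Against TF, where both Dnmt3a copies are intact, Dnmt3a in DF was at -0.73 (SE 0.20, adjusted p = 0.0551), but TF itself was called higher than WT (0.58, adjusted p = 0.0444). Tet2 was called higher in DF than in WT (0.49, adjusted p = 0.0261). All 3 mutants had more Flt3 RNA than WT, by 0.93 on the log2 scale in DF (standard error, SE, 0.28), 1.38 in TF (SE 0.28) and 1.94 in TFD (SE 0.30). Xist, the RNA of the inactive X chromosome, had over 10000 reads in 3 libraries (WT replicate 3, TF replicate 3 and TFD replicate 2) and in none of DF. Ddx3y, a gene of the Y chromosome, had 3, 12 and 4 reads in these libraries and 1040-2132 reads in all others. Such reads are those of female mice in the 3 libraries and of male mice in the others, although the labels give no sex. The 2 TFD libraries thus differ in this too. Values without the 3 libraries are given where they change a call. Cell type markers moved with genotype. All 10 monocyte markers tested were called higher in DF and in TF and 9 of 10 in TFD, and their summed level was 2050-2221 CPM in WT against 5877-7371 CPM in the mutants. All 10 B cell markers were called lower in DF and TFD and 9 of 10 in TF (529-635 CPM in WT, 16.9-125 CPM in the mutants), among them Ms4a1, and Pax5 or Vpreb1 had 0 reads in some mutant libraries. The 125 CPM are those of TF replicate 3, and every other mutant library was at 16.9-29.5 CPM. Of the TF libraries, replicate 3 was also highest in summed T cell, NK cell, plasma cell, erythroid, macrophage and dendritic cell markers. It was lowest in those of monocytes, neutrophils, early granulocytes, megakaryocytes, and stem and progenitor cells. In bulk RNA, fewer or more cells of a type and less or more RNA per cell cannot be told apart, and this holds for every result that follows.

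Against WT, Fcgrt and Fcgr2b were higher in all 3 mutant genotypes, and the activating receptors did not move as 1 group. Fcgrt rose most, by 2.74-fold in DF, 4.75-fold in TF and 4.18-fold in TFD. Fcgr1 rose in TF, Fcgr4 fell in TF and TFD, Fcer1g rose in DF and TF, and Fcgr3 was called in none of the comparisons. With edgeR's quasi-likelihood test and Benjamini-Hochberg adjustment over all 12175 genes (called at an adjusted p under 0.05), 3 of the 6 genes were called higher and 0 lower in DF, where 21.0% of all genes were called higher and 16.6% lower. DESeq2 also called 3 and 0, and 3 genes had an unadjusted p under 0.05. In TF, 4 were called higher and 1 lower, against 19.0% and 15.6% of all genes, DESeq2 called 4 and 1, and 5 had an unadjusted p under 0.05. In TFD, 2 were called higher and 1 lower, against 14.7% and 11.6% of all genes, DESeq2 called 3 and 1, and 5 had an unadjusted p under 0.05. The median log2 fold change of the 6 genes was 0.55 in DF, 0.49 in TF and 0.57 in TFD, and that of all genes 0.05, 0.02 and 0.01. Without the 3 libraries rich in Xist reads, the counts were 3 higher and 1 lower in DF, 4 and 1 in TF, and 1 and 1 in TFD, where each TFD value then rests on 1 library. The 3 comparisons share the WT libraries, so their directions are not independent of each other. Statements below that the libraries of groups did not overlap are descriptions with no test. The share of all genes that separate in that way is not given here.

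**Figure D1:**
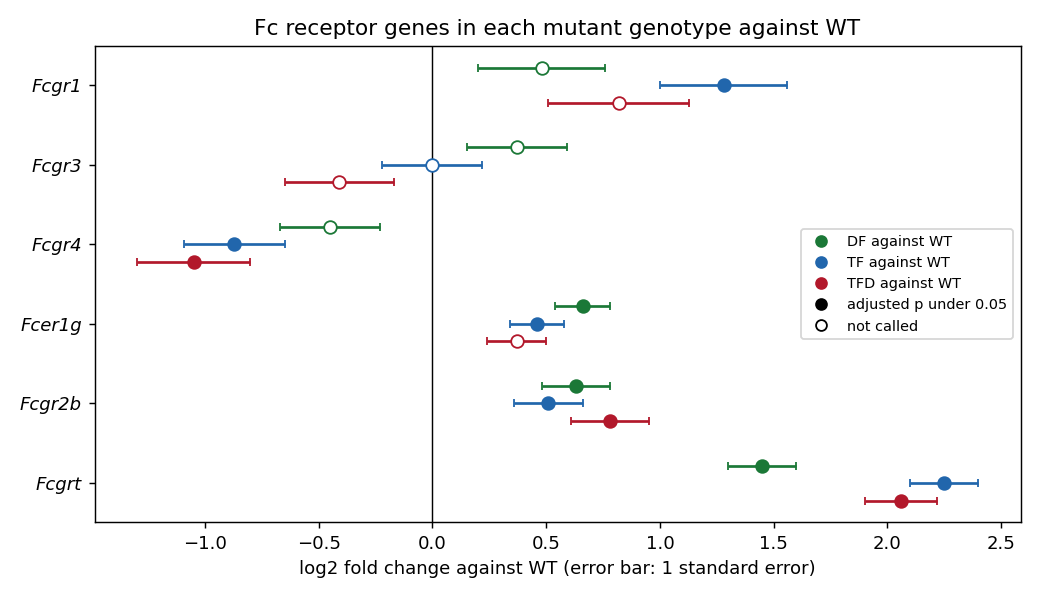
Log2 fold change of each Fc receptor gene against WT in DF, TF and TFD (points) with 1 SE to either side (bars), from edgeR; filled points had an adjusted p under 0.05. Fcgrt lies farthest to the right (1.45, 2.25 and 2.06), Fcgr4 lies left of 0 in all 3 comparisons, and Fcgr3 spreads from 0.37 in DF to -0.41 in TFD.

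The promoters of the 3 activating receptors and those of Fcgr2b and Fcgrt are shown because these genes differed in direction, although Fcgr2b, Fcgr4 and Fcgr3 are neighbours. Each window is from RefSeq on GRCm38.p6 and runs from 250 bases before to 50 bases after the annotated start, 5′ to 3′ on the strand of the gene. All 6 genes had such a window, 7 windows in all since Fcgr3 has 2 starts. Capitals mark matches on either strand to the core of the PU.1 site GAGGAA (printed as its reverse complement TTCCTC in these windows), to the STAT site TTCNNNGAA and to the interferon-stimulated response element (ISRE). The windows are Fcgr1 at chr3:96293920-96294219 (minus strand), Fcgr3 at chr1:171059354-171059653 (minus strand), Fcgr4 at chr1:171018676-171018975 (plus strand), Fcgr2b at chr1:170976022-170976321 (minus strand) and Fcgrt at chr7:45103773-45104072 (minus strand).
Fcgr1: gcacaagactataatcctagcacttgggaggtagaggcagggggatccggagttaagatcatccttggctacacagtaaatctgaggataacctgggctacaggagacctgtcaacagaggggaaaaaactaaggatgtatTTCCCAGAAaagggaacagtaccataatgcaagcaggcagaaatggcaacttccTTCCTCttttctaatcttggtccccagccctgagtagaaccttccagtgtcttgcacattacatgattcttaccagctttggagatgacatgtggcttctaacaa
Fcgr3: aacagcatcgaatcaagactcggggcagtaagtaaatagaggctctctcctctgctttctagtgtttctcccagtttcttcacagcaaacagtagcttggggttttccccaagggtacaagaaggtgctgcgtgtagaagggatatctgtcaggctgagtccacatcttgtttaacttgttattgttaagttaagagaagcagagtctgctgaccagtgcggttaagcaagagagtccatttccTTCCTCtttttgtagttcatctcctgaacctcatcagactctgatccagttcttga
Fcgr4: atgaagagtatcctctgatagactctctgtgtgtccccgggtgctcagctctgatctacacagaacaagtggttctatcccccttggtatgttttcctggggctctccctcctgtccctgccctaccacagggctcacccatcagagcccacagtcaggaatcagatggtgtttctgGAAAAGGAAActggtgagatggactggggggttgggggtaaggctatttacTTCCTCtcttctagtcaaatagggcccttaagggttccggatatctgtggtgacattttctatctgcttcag
Fcgr2b: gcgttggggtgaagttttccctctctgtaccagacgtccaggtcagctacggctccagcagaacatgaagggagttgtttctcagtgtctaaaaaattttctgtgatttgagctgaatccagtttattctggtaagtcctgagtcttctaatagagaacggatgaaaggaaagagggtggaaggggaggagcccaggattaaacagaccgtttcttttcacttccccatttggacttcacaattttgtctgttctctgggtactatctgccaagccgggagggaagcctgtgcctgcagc
Fcgrt: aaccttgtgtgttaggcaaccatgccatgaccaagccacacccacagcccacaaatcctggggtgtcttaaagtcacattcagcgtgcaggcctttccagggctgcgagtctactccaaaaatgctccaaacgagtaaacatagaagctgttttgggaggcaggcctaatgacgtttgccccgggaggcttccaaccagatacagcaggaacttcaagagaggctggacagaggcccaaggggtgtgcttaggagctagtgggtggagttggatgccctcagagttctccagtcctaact

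GAGGAA was present once in each window of the 3 activating receptors, starting at position -55 from the start of Fcgr1, -6 for the first start of Fcgr3 and -22 for Fcgr4. It was not found in the windows of Fcgr2b, Fcer1g or Fcgrt. Of all 32851 RefSeq promoter windows searched, which were not limited to genes with read counts, 28.3% held it. TTCNNNGAA was present in Fcgr1 alone (position -109; 8.3% of all windows) and the ISRE in Fcgr4 alone (position -73; 3.44% of all windows). No window of the 6 genes held the E-box CACGTG (7.15% of all windows). The matches overlapped each other in no window. Fcgr1, which rose in TF, and Fcgr4, which fell in TF and TFD, both had a GAGGAA match.

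Fcgrt, the gene of FcRn (chromosome 7, 45092993-45103822, minus strand, mm10), had 6.71, 7.12 and 8.65 length- and depth-scaled reads (RPKM) in the 3 WT libraries. It had 23.2, 19.7 and 18.6 RPKM in DF, 40.2, 29.5 and 37.2 RPKM in TF, and 31.4 and 31.4 RPKM in TFD. Every mutant library was above every WT library, every TF and TFD library was above every DF library, and TFD lay within the range of TF. The counts behind these values were 100-168 reads in WT and 327-872 reads in the mutants. The log2 fold changes against WT were 1.45 in DF (adjusted p = 2.33e-05, with an SE of 0.15), 2.25 in TF (adjusted p = 1.06e-06, with an SE of 0.15) and 2.06 in TFD (adjusted p = 4.63e-06, with an SE of 0.16), and each was called in all 20 alternative analyses. The partner of FcRn, β2-microglobulin (B2m), differed less: its log2 fold changes were 0.39 in DF (adjusted p = 0.0556, with an SE of 0.15), 0.71 in TF (adjusted p = 0.00324, with an SE of 0.15) and 0.09 in TFD (adjusted p = 0.73, with an SE of 0.17). Monocyte markers were higher in the same libraries as Fcgrt (2050-2221 CPM in WT, 6204-7014 CPM in DF, 5877-7371 CPM in TF and 6076-6148 CPM in TFD), and their part in the change of Fcgrt was not tested. Between DF and TF the summed monocyte markers overlapped and Fcgrt did not. Of the single markers, 2 of 10 for monocytes, 4 of 9 for macrophages, 6 of 8 for dendritic cells, 5 of 6 for erythroid cells and 4 of 6 for plasma cells were called lower in DF than in TF, the direction of Fcgrt, against 4.27% of all genes. So were 2 of 9 for T cells, 1 of 10 for B cells, 1 of 9 for NK cells and 1 of 7 for stem and progenitor cells. Called higher in DF were 2 of 5 for early granulocytes and 1 of 8 for basophils and mast cells, against 1.67% of all genes. TF replicate 3 had the highest macrophage, dendritic cell, erythroid and plasma cell sums in TF. The part of these markers in the difference of Fcgrt was not tested.

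**Figure D2:**
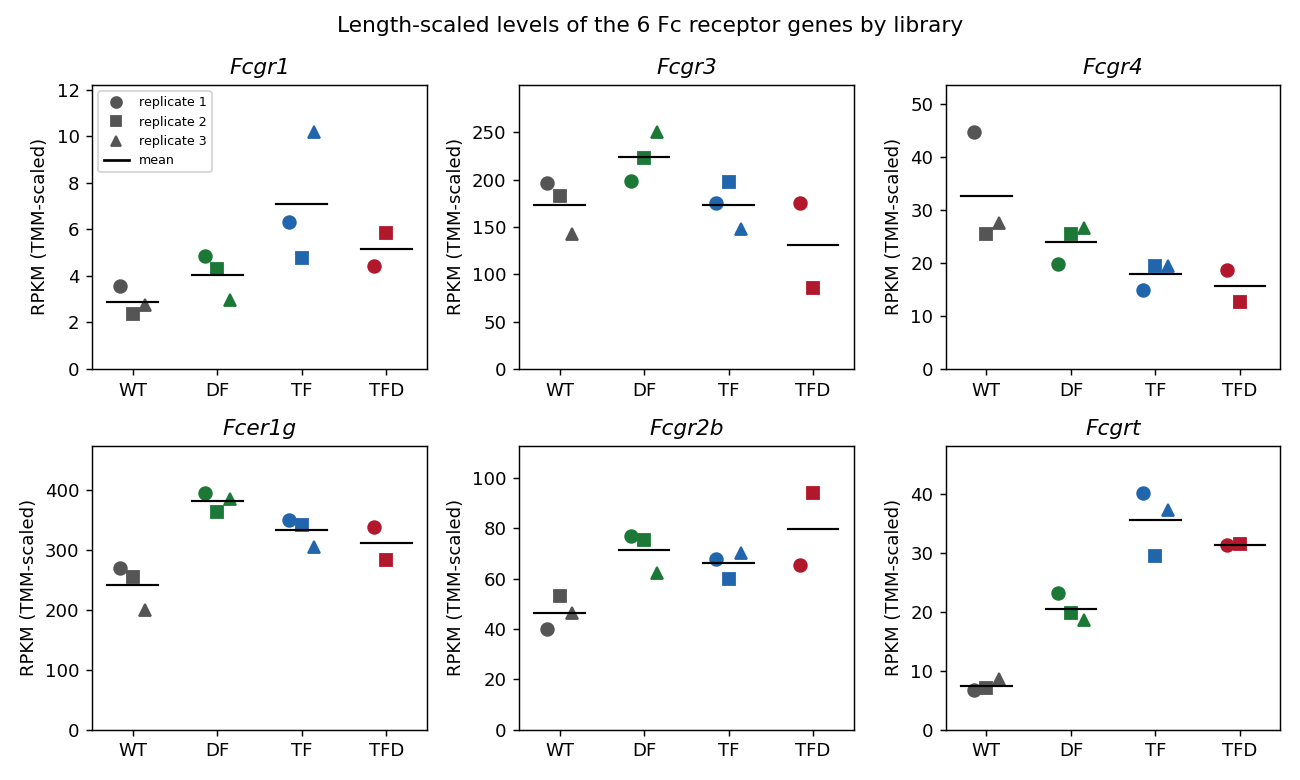
RPKM (scaled with TMM) of the 6 Fc receptor genes in each library, by genotype; the symbol gives the replicate number and the line the mean of the group. Fcgrt separates WT (6.71-8.65) from DF (18.6-23.2) and from TF and TFD (29.5-40.2), and TFD replicate 2 has the lowest Fcgr3 (86.0) and the highest Fcgr2b (94.1) of all 11 libraries.

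Fcgr2b, the inhibitory receptor (chromosome 1, 170960559-170976071, minus strand, mm10), had 40.0, 53.1 and 46.3 RPKM in WT, 76.9, 75.6 and 62.2 RPKM in DF, 67.99, 60.1 and 70.3 RPKM in TF, and 65.3 and 94.1 RPKM in TFD. All 8 mutant libraries were above all 3 WT libraries, and the 3 mutant groups overlapped. The log2 fold changes were 0.63 in DF (adjusted p = 0.00626, with an SE of 0.15), 0.51 in TF (adjusted p = 0.0198, with an SE of 0.15) and 0.78 in TFD (adjusted p = 0.00427, with an SE of 0.17). The call in DF held in all 20 alternatives. That in TF was lost in 4: without WT replicate 1 (0.41, adjusted p = 0.0816), without WT replicate 3 (0.50, adjusted p = 0.0557), without TF replicate 1 (0.49, adjusted p = 0.0604) and with a correction for gene length (0.37, adjusted p = 0.101), where the 20 adjusted p-values ran from 0.00807 to 0.101. That in TFD was lost without TFD replicate 2 (0.50, adjusted p = 0.0606) and without all 3 Xist-rich libraries (0.49, adjusted p = 0.0842), the other values reaching down to 0.00025. Fcgr2b rose in libraries in which the summed B cell markers, of the other lineage that carries this receptor, were at 16.9-125 CPM against 529-635 CPM in WT. The summed monocyte markers, of a lineage that also carries it, were at 5877-7371 CPM in the same libraries against 2050-2221 CPM in WT. The part of either list in the level of Fcgr2b was not tested.

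Fcer1g, the shared signalling chain of the activating receptors (chromosome 1, 171229572-171234349, minus strand, mm10), had the highest length-scaled level of the 6 genes in every library. It had 269, 254 and 200.2 RPKM in WT, 394, 363 and 385 RPKM in DF, 350.2, 341 and 305 RPKM in TF, and 338 and 283 RPKM in TFD. Every mutant library was above every WT library, and every DF library was above every TF and TFD library. The log2 fold change was 0.66 in DF (adjusted p = 0.00119, with an SE of 0.12) and was called in all 20 alternatives. In TF it was 0.46 (adjusted p = 0.0113, with an SE of 0.12), and the call was lost without WT replicate 3 (0.33, adjusted p = 0.0521) and with a correction for gene length (0.15, adjusted p = 0.414), with adjusted p-values of 0.00183 to 0.414 over the alternatives. Its 658 bases of exon make it the shortest of the 6 genes. In TFD the log2 fold change was 0.37 (adjusted p = 0.0627, with an SE of 0.13), which did not pass the threshold, and it was called in 2 of 20 alternatives (0.00922 to 0.352): without WT replicate 1 (0.45, adjusted p = 0.0397) and with a term for Xist-rich libraries (0.42, adjusted p = 0.00922).

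Fcgr1, the high-affinity receptor (chromosome 3, 96282909-96293969, minus strand, mm10), had the lowest length-scaled level of the 6 genes in every library. It had 3.55, 2.34 and 2.77 RPKM in WT, 4.84, 4.30 and 2.98 RPKM in DF, 6.34, 4.77 and 10.2 RPKM in TF, and 4.44 and 5.85 RPKM in TFD. All TF and TFD libraries were above all WT libraries, whereas DF overlapped both WT and TF. These values rest on 49-112 reads a library in WT and 78-289 in the mutants. The log2 fold change in TF was 1.28 (adjusted p = 0.00376, with an SE of 0.28), called in all 20 alternatives. It was 0.48 in DF (adjusted p = 0.197, with an SE of 0.28) and 0.82 in TFD (adjusted p = 0.0678, with an SE of 0.31), neither called, although DESeq2 called TFD (0.81, adjusted p = 0.0484). TFD was also called when TF replicate 2 (adjusted p = 0.0404) or TF replicate 3 (adjusted p = 0.0209) was left out of the shared estimate of the spread, and with WT and TFD fitted alone (adjusted p = 0.0218), the range over the alternatives being 0.0209 to 0.266.

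Fcgr3 (chromosome 1, 171051169-171059403, minus strand, mm10) was the most abundant of the 4 Fcγ receptors per length in 10 of the 11 libraries. It had 196, 182 and 143 RPKM in WT, 198, 223 and 249.96 RPKM in DF, 175, 197 and 148 RPKM in TF, and 176 and 86.0 RPKM in TFD. All DF libraries were above all WT and all TF libraries, TF lay across WT, and the 2 TFD libraries stood far apart. The log2 fold changes were 0.37 in DF (adjusted p = 0.197, with an SE of 0.22), 0.00 in TF (adjusted p = 0.998, with an SE of 0.22) and -0.41 in TFD (adjusted p = 0.245, with an SE of 0.24), and none was called. The TFD value depended on its libraries: without TFD replicate 1 it was -1.01 (adjusted p = 0.00741), and over the 20 alternatives it ran from -1.01 to 0.02 (adjusted p up to 0.947). Neutrophil markers differed in the same way between the 2 TFD libraries, with a summed level of 45501 CPM in TFD replicate 1 and 22556 CPM in TFD replicate 2, against 50671-63408 CPM in WT and 57023-80710 CPM in DF. In TF they were at 36017-46382 CPM, below all WT libraries, while Fcgr3 lay across WT. The part of the neutrophil markers in the spread of Fcgr3 was not tested.

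Fcgr4 (chromosome 1, 171018926-171029761, plus strand, mm10) was the 1 gene of the 6 that was called lower than WT. It had 44.7, 25.5 and 27.5 RPKM in WT, 19.9, 25.5 and 26.5 RPKM in DF, 14.9, 19.5 and 19.3 RPKM in TF, and 18.8 and 12.6 RPKM in TFD. All TF and TFD libraries were below all WT and all DF libraries, and DF overlapped WT, whose first replicate stood above the rest. The log2 fold changes were -0.45 in DF (adjusted p = 0.121, with an SE of 0.22), -0.87 in TF (adjusted p = 0.00908, with an SE of 0.22) and -1.05 in TFD (adjusted p = 0.00841, with an SE of 0.25). The TF call held in all 20 alternatives. The TFD call was lost without TFD replicate 2 (-0.80, adjusted p = 0.082, the highest of 20 values from 0.00035), and DF was called lower when the libraries rich in Xist reads were left out (-0.60, adjusted p = 0.042, against up to 0.476 in the other alternatives). Of 10 neutrophil markers, edgeR called 0 in DF (0 by DESeq2, and 0 with an unadjusted p under 0.05), 4 lower in TF and 1 lower in TFD (4 and 4 by DESeq2), where 15.6% and 11.6% of all genes were called lower, so the edgeR count in TFD is near that of all genes. Cxcr2, a chemokine receptor of mature neutrophils, was at -1.18 in TF (adjusted p = 0.0013, with an SE of 0.21) and -0.96 in TFD (adjusted p = 0.0112, with an SE of 0.24). In TF their summed level was 36017-46382 CPM. Their part in the fall of Fcgr4 was not tested.

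The balance of activating to inhibitory receptors was read within each library as the log2 ratio of length-scaled reads to Fcgr2b, which does not depend on library scaling; this is a description with no test. For Fcgr4 the ratio was -0.55 ± 0.63 in WT, -1.58 ± 0.36 in DF, -1.89 ± 0.29 in TF (mean ± SD, n = 3 each) and -2.35 ± 0.78 in TFD (n = 2). As plain ratios, Fcgr4 stood at 1.12, 0.481 and 0.594 of Fcgr2b in WT and at 0.134 to 0.426 in the mutants, so every mutant library was below every WT library. For Fcgr3 it was 1.90 ± 0.35 in WT, 1.64 ± 0.33 in DF, 1.39 ± 0.32 in TF (n = 3 each) and 0.65 ± 1.10 in TFD (n = 2). DF and TF overlapped WT, while both TFD libraries (1.43 and -0.13) were below all 3 WT libraries (1.62 to 2.29). TFD replicate 2 was the only library in which Fcgr2b exceeded Fcgr3, with a ratio of 0.914 against 2.69 in TFD replicate 1. For Fcgr1 the log2 ratio was -4.02 ± 0.51 in WT, -4.17 ± 0.20 in DF, -3.29 ± 0.45 in TF (n = 3 each) and -3.94 ± 0.09 in TFD (n = 2). The 3 TF libraries (-3.65 to -2.79) lay above all DF and TFD libraries but overlapped WT, whose first replicate was at -3.49.

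**Figure D3:**
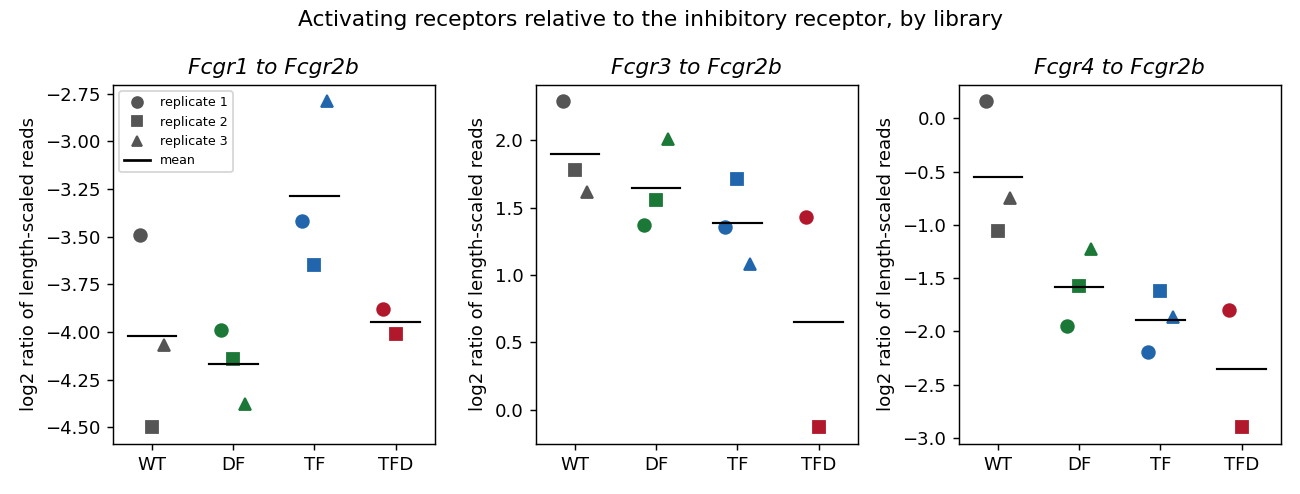
Log2 ratio of length-scaled reads of Fcgr1, Fcgr3 and Fcgr4 to Fcgr2b in each library, by genotype; the symbol gives the replicate number and the line the mean of the group. The ratio of Fcgr4 is lower in all 8 mutant libraries (-2.90 to -1.23) than in the 3 WT libraries (-1.06 to 0.16), and TFD replicate 2 stands apart for Fcgr3 (-0.13).

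As shares of the summed length-scaled reads of the 4 Fcγ receptors, Fcgr3 took 65.04-69.25% in WT, 66.13-73.15% in DF and 59.77-70.03% in TF, and 66.5% and 43.3% in the 2 TFD libraries. Fcgr2b took 14.09-21.14% in WT and 18.21-28.34% in DF and TF, and 24.72% and 47.39% in TFD. Fcgr4 took 9.7-15.72% in WT and 5.63-7.79% in all mutant libraries, and Fcgr1 0.89-1.26% in WT and 0.87-4.1% in the mutants. The share of Fcgr4 thus separated WT from every mutant library, as its ratio to Fcgr2b did.

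Comparing the mutants with each other asks whether the mutated partner of Flt3 ITD, or the third mutation, moves these genes. Between DF and TF, 0 of the 6 were called higher and 1 lower in DF, Fcgrt, against 1.67% and 4.27% of all genes. The log2 difference of Fcgrt, DF against TF, was -0.79 (adjusted p = 0.00676, with an SE of 0.14), with every DF library below every TF library, and the call held in all 20 alternatives with an adjusted p of up to 0.0486. Fcgr1 was at -0.80 (adjusted p = 0.107, with an SE of 0.27), and it was called by DESeq2 (-0.83, adjusted p = 0.0435) and without TF replicate 2 (-1.02, adjusted p = 0.0295), with values of up to 0.461 in the other alternatives. Fcgr4 was not called (0.42, adjusted p = 0.332, with an SE of 0.22), although its DF and TF libraries did not overlap. Between DF and TFD, edgeR called 0 of the 6 genes and 0% of all genes. There 3 of the 6 had an unadjusted p under 0.05, namely Fcgrt (-0.61, SE 0.15, adjusted p = 0.137), Fcgr3 (0.77, SE 0.25, adjusted p = 0.205) and Fcgr4 (0.60, SE 0.25, adjusted p = 0.304), and DESeq2 called Fcgrt alone (-0.64, adjusted p = 0.0207, against up to 0.427). Without TFD replicate 1, Fcgr3 was called (1.38, adjusted p = 0.0136, against up to 0.999). Between TF and TFD, edgeR called 0 of the 6, against 0.0164% of all genes, none had an unadjusted p under 0.05, and DESeq2 called 0. The fold changes between TF and TFD ran from -0.27 (Fcgr2b, SE 0.17) to 0.47 (Fcgr1, SE 0.30), and with 3 and 2 libraries differences of that size did not pass the test.

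Of the 6 genes, 4 lie within 273.8 kb of chromosome 1, where the table held 7 genes from Fcgr2b to Fcer1g. Fcgr2b, Fcgr4 and Fcgr3 lie within 98.8 kb, and no gene of the table overlapped any of the 6. Within that stretch the log2 fold change in TFD went from 0.78 (Fcgr2b) to -1.05 (Fcgr4) and -0.41 (Fcgr3, not called). Sdhc, a subunit of respiratory complex II that lies between Fcgr3 and Fcer1g, was called higher in DF and TF (0.41 and 0.42, with adjusted p-values of 0.0162 and 0.0174), while TFD missed the threshold (0.37, adjusted p = 0.0524). Pcp4l1 and Tomm40l, between Sdhc and Fcer1g, were not called in any mutant. Genes of the locus thus changed in both directions beside genes that were not called.

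Of the other Fc receptor genes, more were called lower than higher. The list held 14 genes, of which 9 were tested: 0 were called higher and 6 lower in DF, 1 and 6 in TF, and 0 and 5 in TFD, with medians of -1.76, -1.63 and -2.0. Of all genes, 16.6%, 15.6% and 11.6% were called lower in DF, TF and TFD. Called lower in all 3 mutants were the IgE receptor Fcer2a (CD23; 9.85-13.7 CPM in WT, 0-0.713 CPM in the mutants), the IgM receptor Fcmr (22.9-25.3 against 0.099-5.38 CPM), Fcrl1 (14.1-20.0 against 2.94-7.11 CPM) and Fcrla (41.4-79.0 against 0.594-10.4 CPM), all known from B cells. Their fitted fold changes rest on few reads in the mutants (0-8 for Fcer2a, 1-59 for Fcmr). The 59 reads of Fcmr are those of TF replicate 3, and the other mutant libraries had 1-9. The summed B cell markers fell in the same libraries, and their part in these changes was not tested. Trim21, the Fc receptor of the cytosol, was called in TF alone (0.36, SE 0.12, adjusted p = 0.0333).

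Genes of ITAM signalling, which carries the signal of the activating receptors, were called in both directions. All 26 were tested, with 10 called higher and 3 lower in DF, 5 and 2 in TF, and 8 and 2 in TFD (medians 0.19, 0.11 and 0.12). Of all genes, 21.0% were called higher and 16.6% lower in DF, 19.0% and 15.6% in TF, and 14.7% and 11.6% in TFD, so the share of the list called higher in TF was close to that of all genes. Lat2, the linker adaptor NTAL of myeloid cells and B cells, had the largest change of the list in TFD, with 23.6-30.3 CPM in WT and 52.1-84.8 CPM in the mutants (log2 fold changes 1.08, 1.57 and 1.27 in DF, TF and TFD, SE 0.13, 0.13 and 0.14). The adaptors Gab2 (0.86, 0.80 and 1.10) and Card9 (0.90, 0.39 and 0.73), the kinase Prkcd (0.44, 0.46 and 0.64) and the PI3-kinase subunit Pik3cd (0.55, 0.51 and 0.53) were also called higher in all 3. Syk, the kinase that binds the ITAM of Fcer1g, was called lower in all 3, from 532-633 CPM in WT to 346-453 CPM in the mutants (-0.52, -0.74 and -0.52, SE 0.11, 0.11 and 0.12), as was Plcg1 (-0.76, -0.45 and -0.68). Syk was thus lower in the DF and TF libraries in which Fcer1g was called higher. It was also lower in TFD, where Fcer1g was above WT in every library but not called. The summed B cell markers fell in the same libraries, and their part in the level of Syk was not tested.

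On the inhibitory side, 3 of 12 phosphatases and adaptors were called higher and 1 lower in DF, 3 and 1 in TF, and 2 and 1 in TFD (medians 0.04, -0.02 and 0.04), which is near the shares of all genes (21.0% and 16.6%, 19.0% and 15.6%, and 14.7% and 11.6%). Inppl1, which encodes the phosphatase SHIP2, rose in all 3 (0.72, 1.15 and 1.27, SE 0.23, 0.23 and 0.25), as did the adaptor Dok1 (0.77, 0.91 and 0.63, SE 0.17, 0.17 and 0.18). Inpp5d, which encodes SHIP1, the phosphatase bound by FcγRIIb, was not called (0.09, 0.11 and 0.17, SE 0.11, 0.11 and 0.12). Of 15 other ITIM receptors 14 were tested, with 5 called higher and 2 lower in DF, 2 and 5 in TF, and 2 and 7 in TFD (medians 0.14, -0.33 and -0.36). Cd300a, an inhibitory receptor of myeloid cells, was higher in all 3 (0.61, 0.93 and 0.95), and Cd72, an inhibitory receptor of B cells, was lower in all 3 (36.0-51.1 CPM in WT, 1.78-10.7 CPM in the mutants).

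Other receptors that use the γ chain were called in both directions. Of 10, 7 were tested, with 1 called higher and 3 lower in DF, 1 and 4 in TF, and 1 and 3 in TFD (medians -0.49, -1.24 and -1.38). The background over all genes was 21.0% higher and 16.6% lower in DF, 19.0% and 15.6% in TF, and 14.7% and 11.6% in TFD, for this list and for that of Tyrobp. The C-type lectins Clec4d (-1.56, -1.74 and -1.65, SE 0.17, 0.17 and 0.20) and Clec4e, known as Mincle (-0.65, -1.30 and -1.47, SE 0.15, 0.15 and 0.18), were lower in all 3, and Pira2, an activating paired immunoglobulin-like receptor, was higher (0.77, 0.77 and 0.59). Ncr1, the NK cell receptor NKp46, was at 2.96-4.39 CPM in WT and 0.245-1.78 CPM in the mutants, called lower in DF and TF but not in TFD (-1.71, SE 0.63, adjusted p = 0.0616). Tyrobp encodes DAP12, the other ITAM chain of myeloid cells. Of 9 genes of Tyrobp and its receptors, 3 were called higher and 2 lower in DF, 3 and 3 in TF, and 2 and 4 in TFD (medians 0.06, -0.40 and -0.54). Trem2 (1.91, 1.31 and 1.60) and Sirpb1a (0.95, 0.81 and 0.81) were higher in all 3, and Cd300ld was lower (-1.0, -1.26 and -1.33). Siglech, a receptor of plasmacytoid dendritic cells, was at 35.5-42.3 CPM in WT, 0.0644-1.35 CPM in DF, 11.9-63.2 CPM in TF and 0.5-5.26 CPM in TFD. Of the 9 genes listed for FcRn's partner and the antibodies themselves, B2m and Jchain were tested, and Jchain, the joining chain of IgM and IgA, was called lower in DF (-2.31, SE 0.33) and TFD (-1.44, SE 0.37).

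**Figure D4:**
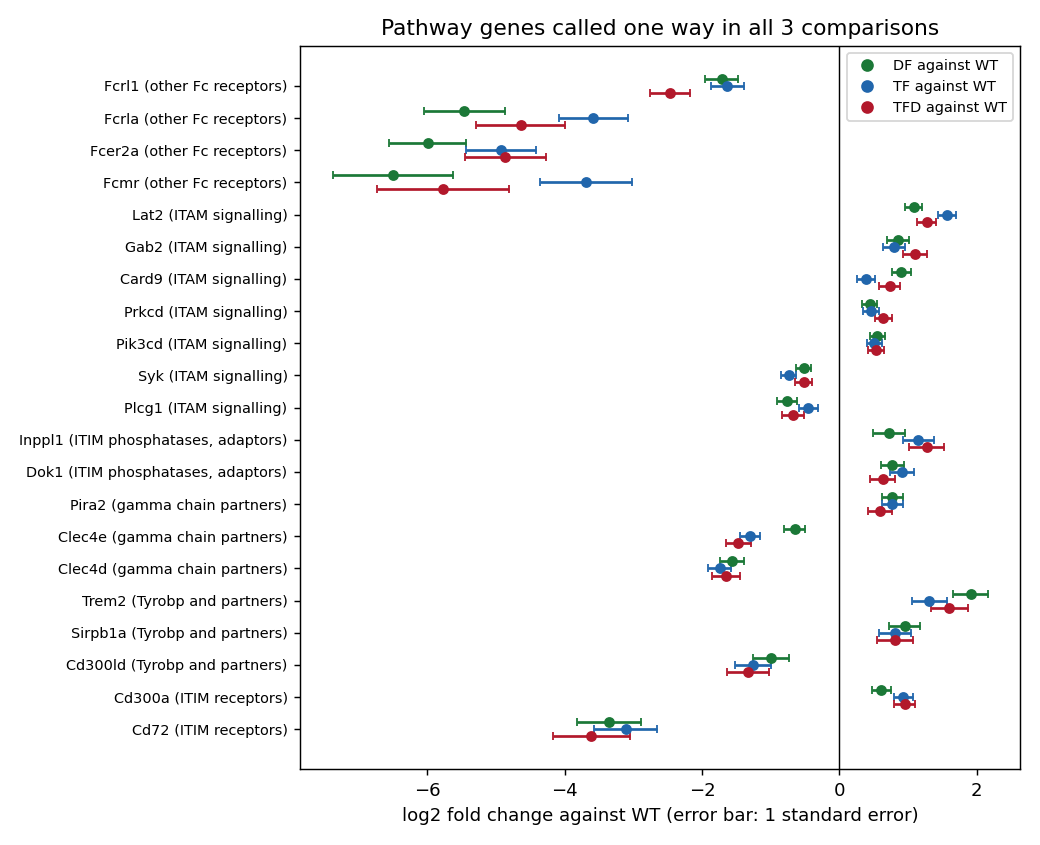
Log2 fold change against WT (points) with 1 SE to either side (bars) in DF, TF and TFD for the pathway genes called in the same direction in all 3 comparisons, with the list of each gene in parentheses. Lat2, Gab2, Card9, Prkcd and Pik3cd lie right of 0 while Syk and Plcg1 lie left of it; the fitted values of Fcmr and Fcer2a, beyond -3, rest on few reads in the mutants.

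The remaining marker lists are given by their counts, to be read against 21.0% of all genes called higher and 16.6% lower in DF, 19.0% and 15.6% in TF, and 14.7% and 11.6% in TFD. The counts for eosinophil and for stem and progenitor markers are near these shares. So are those for early granulocyte markers in TF, basophil and mast cell markers in DF and TFD, and megakaryocyte markers in TF and TFD. Of 9 macrophage markers, 1 was called higher and 8 lower in DF, 1 and 3 in TF, and 1 and 5 in TFD, and their summed level was 498-569 CPM in WT and 309-484 CPM in the mutants. Resident macrophages also carry FcRn and FcγRI, and the 1 macrophage marker called higher was Adgre1, which monocytes also express. Of 9 NK cell markers, 0 and 6 were called higher and lower in DF, 1 and 6 in TF, and 0 and 5 in TFD (105-111 CPM in WT, 58.4-104 CPM in the mutants). The medians of the list were -1.02, -1.04 and -1.59, a larger change than the sum shows. Nkg7 had the most reads of the list in WT (379-528, against 351-1073 in the mutants), whereas Gzma had 37-62 reads in WT and 2-11 in the mutants. NK cells also carry FcγRIII, and the part of these markers in the level of Fcgr3 was not tested. Of 5 markers of early granulocytes, 5, 1 and 2 were called higher in DF, TF and TFD and 0 lower. Of 8 dendritic cell markers, 1 was called higher and 2 lower in DF, 6 and 0 in TF, and 4 and 1 in TFD (75.9-147 CPM in DF, 226-546 CPM in TF). This list holds Flt3, the gene with the engineered duplication. Flt3 was the 1 marker called higher in DF and is also among those called higher in TF and TFD. Of 9 T cell markers 0 were called higher, and 7, 3 and 6 lower. Of 6 plasma cell markers, 1 was higher and 4 lower in DF, 0 and 2 in TF, and 0 and 4 in TFD. Of 8 basophil and mast cell markers 0 were higher, and 1, 6 and 1 lower. Of 6 erythroid markers 0 were higher, and 6, 4 and 4 lower. Of 7 eosinophil markers, 1 and 2, 2 and 2, and 0 and 2 were higher and lower in the 3 mutants. Of 7 megakaryocyte markers, 0 and 4, 0 and 1, and 1 and 0 were higher and lower, and of 7 stem and progenitor markers 2 and 1, 1 and 0, and 2 and 1.

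**Figure D5:**
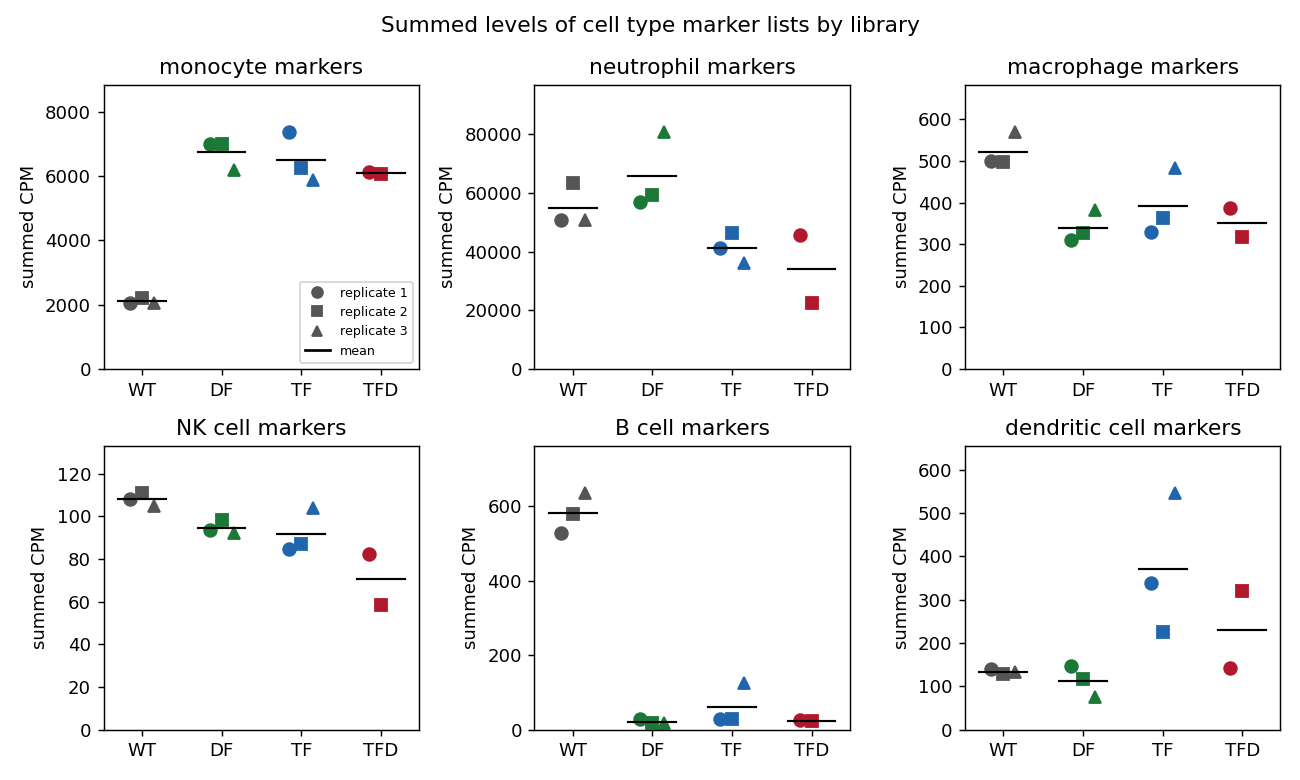
Summed CPM of 6 cell type marker lists in each library, by genotype; the symbol gives the replicate number and the line the mean of the group. Monocyte markers lie at 2050-2221 CPM in WT and 5877-7371 CPM in the mutants, B cell markers at 529-635 and 16.9-125 CPM, and neutrophil markers fall to 22556 CPM in TFD replicate 2.

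The genes whose profile was most like that of each receptor were sought over all 11 libraries among the 11183 genes whose mean log2 CPM reached 1, by the root mean square (RMS) difference of centred log2 CPM. This is a description with no test. Nearest to Fcgrt was Cyp27a1, a mitochondrial sterol hydroxylase (RMS 0.16, against a median of 0.93 over genes), at 1.5 (DF), 2.11 (TF) and 2.09 (TFD) in log2 fold change against WT, followed by Ptpro (0.17) and Pid1 (0.19). Nearest to Fcer1g was Alox5ap, the 5-lipoxygenase activating protein (RMS 0.05, median 0.35), followed by Rps6ka1 (0.07) and Sh3bgrl3 (0.08). Nearest to Fcgr2b were Usp40 (0.11), Kifap3 (0.11) and Ppp1r21 (0.12), with a median of 0.39. Nearest to Fcgr3 was Pilrb1, an activating paired receptor of myeloid cells (RMS 0.13, median 0.45), followed by Amer2 (0.14) and Msra (0.14). Nearest to Fcgr4 were Grina (0.16), Dok2 (0.19), an adaptor on the inhibitory list, and Chst11 (0.20), with a median of 0.52. Among the 3 nearest to Fcgr1 were Pea15a (0.22) and Ptprs (0.23), with a median of 0.61. None of the 6 Fc receptor genes was among the 3 nearest of another.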

How the data were processed

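RNA of BM cells from WT, DF, TF and TFD mice was sequenced after globin depletion. The authors aligned reads to mm10 with STAR, kept unique alignments, assigned them to refGene genes with featureCounts and deposited raw counts for 12199 genes, given as those over 0.5 CPM in more than 3 samples, of which 12175 met that filter in the 11 libraries. Versions and the strand setting are not given in the sources used here. The authors also deposited gene lengths and log2 CPM, which matched edgeR's log2 CPM (prior count 0.25) within 5e-09. Every column of sample values matched a sample.

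From the counts, edgeR 4.0.16 in R 4.3.3 tested 12175 genes (over 0.5 CPM in more than 3 of 11 libraries, TMM factors, 1 mean per genotype, quasi-likelihood F test, Benjamini-Hochberg adjustment, threshold 0.05). RPKM came from TMM-scaled libraries and the deposited lengths. The procedure was tested on simulated data. The study itself used DESeq2, here an alternative (version 1.42.0). The others were library totals, RLE size factors, no filter, a loess correction for gene length (span 0.3), a covariate for Xist (10000 reads or more), a replicate block, the groups compared alone and leaving out each library, with 1 added after seeing the data (leaving out the Xist-rich libraries). Levels between genes are compared per length. Promoter windows came from RefSeq (GRCm38.p6).

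The 6 genes, 7 pathway lists and 14 cell type marker lists were chosen with earlier results of these data known. Genes named from the lists were those called one way in all 3 comparisons with WT, the 1 with the largest change in TFD versus WT and, for each of the 6, the 3 nearest in profile, of which 1 is not reported here. B2m, Trim21, Inpp5d, Sdhc, Pcp4l1, Tomm40l, Cxcr2, Adgre1, Ms4a1, Pax5, Vpreb1, Nkg7, Gzma, Xist and Ddx3y were named outside that rule after their values were seen. Pilrb1, listed with γ chain partners, is also known to pair with Tyrobp, and Ncr1, Klrk1, Siglech, Cd22, Jchain, Fcer1a and Ms4a2 are on both a pathway list and a marker list. Flt3, a targeted gene, is on the dendritic cell marker list.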

Additional observations from a re-analysis of the deposited data

Results flagged for a closer look

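DF and TF share the Flt3 ITD allele and the WT comparison, and the genes given here were called different between them by edgeR's quasi-likelihood test. Fcgrt was lower in DF than in TF (log2 fold change -0.79, SE 0.14, adjusted p = 0.00676), with the same order in every pair of libraries. Of the pathway lists, DF exceeded TF in 2 of 26 ITAM signalling genes and was below it in 2, with 1 and 2 of 9 for Tyrobp and its receptors, 2 and 1 of 14 other ITIM receptors, 1 and 0 of 7 γ chain partners, 0 and 1 of 9 other Fc receptors and 0 and 1 of 2 FcRn partner and antibody genes, against 1.67% and 4.27% of all genes. Of 12 phosphatases and adaptors edgeR called 0, with 2 at an unadjusted p under 0.05 and 1 called higher in DF by DESeq2. Among those described above, Lat2 (-0.49) and Trim21 (-0.44) were also lower in DF, and Card9 (0.51) and Clec4e (0.64) were higher in DF. Siglech (-5.89) and Jchain (-1.67) were lower in DF, and both are markers of cell types other than monocytes. Siglech had 1-17 reads a library in DF, so its fitted size depends on few reads. The part of plasmacytoid dendritic cells or plasma cells in these differences was not tested.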

How the results depend on the processing

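Over 20 alternatives for each of 36 fold changes of the 6 genes, 699 of 720 kept the side of the threshold, 9 lost a call and 12 gained one. No called fold change of the 6 genes turned its sign. The calls of Fcgrt against WT and between DF and TF, of Fcgr2b and Fcer1g in DF, and of Fcgr1 and Fcgr4 in TF held in all 20. For the other named genes 86 of 3240 lost a call and 31 gained one, and Cd72 between DF and TF went from -0.25 to 0.96 without the Xist-rich libraries.

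Among the 6 genes, the number called lower in DF was 1 without the Xist-rich libraries. The number called higher in TF was 2 with the length correction and 2 to 4 leaving out single libraries. In TFD it was 1 without the Xist-rich libraries and 1 to 3 leaving out single libraries, with 0 to 2 called lower. Between DF and TF, DESeq2 called 2 lower, and leaving out single libraries 1 to 2. Between DF and TFD, DESeq2 called 1 lower, and leaving out TFD replicate 1, where the lone library is assumed to vary like the other groups, gave 1 higher (0 to 1 over libraries). Scaled by library totals, the mean log2 CPM was 7.90 for Fcer1g in DF and 5.80 for Fcgrt in TFD.

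Among all genes, leaving out single libraries gave 1167 to 2103 lower in TF (1899) and 935 to 1559 in TFD (1416). Between DF and TF, 203 were higher: 329 with DESeq2, 106 with library totals, 370 with the length correction, 134 without the Xist-rich libraries and 38 to 286 leaving out single libraries, with 131 to 704 lower (520). Between DF and TFD, 0 were called in either direction. DESeq2 called 103 higher and 155 lower, the fit of the groups compared alone 26 and 109, the fit without Xist-rich libraries 9 and 141, and leaving out single libraries 0 to 237 and 0 to 174. Between TF and TFD, 1 was higher and 1 lower. DESeq2 called 109 and 22, the Xist term 18 and 4, the groups alone 0 and 0, the fit without Xist-rich libraries 6 and 9, and leaving out single libraries 1 to 60 and 1 to 16. The causes were not tested. Library totals moved the median of all genes by at most -0.09 (log2), and the share of calls that were higher from 55.9% to 42.3% in DF against WT and from 28.1% to 13.9% between DF and TF, where the length correction gave 43.1%.

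The replicate numbers did not pair the libraries: same-numbered libraries correlated by -0.299 to 0.247 in their deviations, over 0.1 in 3 of 15 pairs. A fit with replicate as a block changed no call of the 6 genes and gave 8 higher and 34 lower genes between DF and TFD.

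TFD rests on 2 libraries, which stood at 176 and 86.0 RPKM for Fcgr3, and its values are the least precise. Fcgr1 rests on 49-289 reads a library.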
